A study of Caenorhabditis elegans with 2 samples.

Results

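The genes of the 26S proteasome were examined for binding of HSF-1, the transcription factor of the heat shock response, in whole Caenorhabditis elegans. Members were the protein-coding genes of the Ensembl annotation of the worm genome (ce11, WBcel235) whose names begin with pas-, pbs-, rpt- or rpn-, which gave 33 of 19973 genes. Of these, 14 encode the core particle, 10 the base and 9 the lid. The study had 1 group with 2 biological replicates. All animals were of strain RW12254, whose allele st12254[hsf-1::TY1::EGFP::3xFLAG] was made by CRISPR insertion at hsf-1 itself, so the precipitated protein was a fusion. They were young adults, 63 h old, synchronised as starved L1 larvae after bleaching, and an antibody against GFP was used for chromatin immunoprecipitation and sequencing. The labels name no heat shock or other treatment and no second strain, and whole animals mix all tissues, so no condition could be compared and a peak cannot be placed in a cell type.

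The proteasome degrades proteins marked with ubiquitin. Its core particle is a barrel of outer rings built from alpha subunits (pas genes) and inner rings of beta subunits (pbs genes), some of which carry the proteolytic sites. The regulatory particle that caps it has a base, with a ring of ATPases (rpt genes) that unfold substrates plus scaffold and ubiquitin-receptor subunits, and a lid that holds the deubiquitinating enzyme. HSF-1 binds heat shock elements, runs of the triplet GAA in alternating orientation, and is best known for driving chaperone genes. In worms the SKN-1A transcription factor is the known activator of proteasome subunit genes.

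An element was counted where 3 triplets, GAA and TTC in turn, stood with 2 bases between them on either strand, with no mismatch. The sequences at 3 of the bound promoters and at 2 further elements of members are shown first, because the 2 strongest peaks of members lie on such elements and the next one does not. All are on the + strand of ce11, from the RefSeq sequence of WBcel235, in lower case with every element in capitals, and the first 3 surround the summits of peaks.
rpn-3 peak (chrIII:8447000-8447233): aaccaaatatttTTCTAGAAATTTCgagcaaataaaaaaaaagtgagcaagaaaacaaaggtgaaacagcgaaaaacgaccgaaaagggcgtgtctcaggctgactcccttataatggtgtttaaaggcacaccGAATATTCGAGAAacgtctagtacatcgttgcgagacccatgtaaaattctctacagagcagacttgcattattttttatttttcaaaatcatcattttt
rpn-2 peak (chrIII:6198503-6198653): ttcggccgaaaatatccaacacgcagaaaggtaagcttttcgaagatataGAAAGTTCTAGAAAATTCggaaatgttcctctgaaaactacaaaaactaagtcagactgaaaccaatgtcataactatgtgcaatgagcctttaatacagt
rpn-9 peak (chrII:11239088-11239238): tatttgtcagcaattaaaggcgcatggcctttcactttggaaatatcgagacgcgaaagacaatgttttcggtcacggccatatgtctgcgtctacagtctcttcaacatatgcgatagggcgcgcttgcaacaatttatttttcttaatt
pas-1 element (chrV:14422736-14422760): ttaatgGAATATTCAGGAAacaaaa
rpn-1 element (chrIV:6910858-6910882): atatttTTCCTGAAAATTCactata
The rpn-3 stretch held 2 separate elements. In the rpn-2 stretch 4 triplets followed each other without a break, which makes 2 overlapping elements. The rpn-9 stretch, under a peak found in both replicates, held none. The elements of pas-1 and rpn-1 had no summit of the pooled list within 100 bp.

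A gene was called bound when a peak summit lay between 1000 bp before and 200 bp after one of its transcript starts, and that stretch is called the promoter window. The signal of a peak is the value that the authors' peak caller gave it, without a stated unit and not scaled between lists. The pooled list, made from both replicates together, held 2935 peaks with a median signal of 92.6. The lists of replicate 1 and replicate 2 held 1217 and 1877 peaks. All 2935 peaks had an irreproducible discovery rate (IDR) of at most 0.01. The IDR is estimated from the ranks of peaks in different sets, and a high value marks a peak that is likely not reproducible. Numbers of reads are unknown, so intervals below cover the counting of genes only.

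In the pooled list 7 of 33 members were bound, or 21.2% (95% Wilson interval 10.7% to 37.8%), against 7.63% of all protein-coding genes. They were pas-1 and pbs-5 of the core, rpn-2 of the base, and rpn-3, rpn-6.2, rpn-9 and rpn-11 of the lid. The lid had 4 of 9 members bound (44.4%, 18.9% to 73.3%), the core 2 of 14 (14.3%, 4.01% to 39.9%) and the base 1 of 10 (10%, 1.79% to 40.4%). None of the 6 ATPase genes was bound, which leaves an upper Wilson bound of 39%. These intervals overlap, and no difference between core, base and lid was tested.

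The conservative list had 6 of 33 members bound, against 7.11% of all genes, and lacked rpn-11. In the list of replicate 1 there were 5 members (pas-5, pbs-5, rpn-2, rpn-3 and rpn-9), against 3.83% of genes. The list of replicate 2 had 6 (pbs-5, rpn-2, rpn-3, rpn-6.2, rpn-9 and rpn-11), against 5.29%. By replicate the lid count was thus 2 in replicate 1 and 4 in replicate 2, and the core count 2 and 1. A pooled peak that overlapped a peak in each replicate list was found at 4 members, rpn-3, rpn-2, rpn-9 and pbs-5, against 3.32% of genes. The remaining 3 bound members therefore rest on the pooled data or on 1 replicate.

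**Figure D1:**
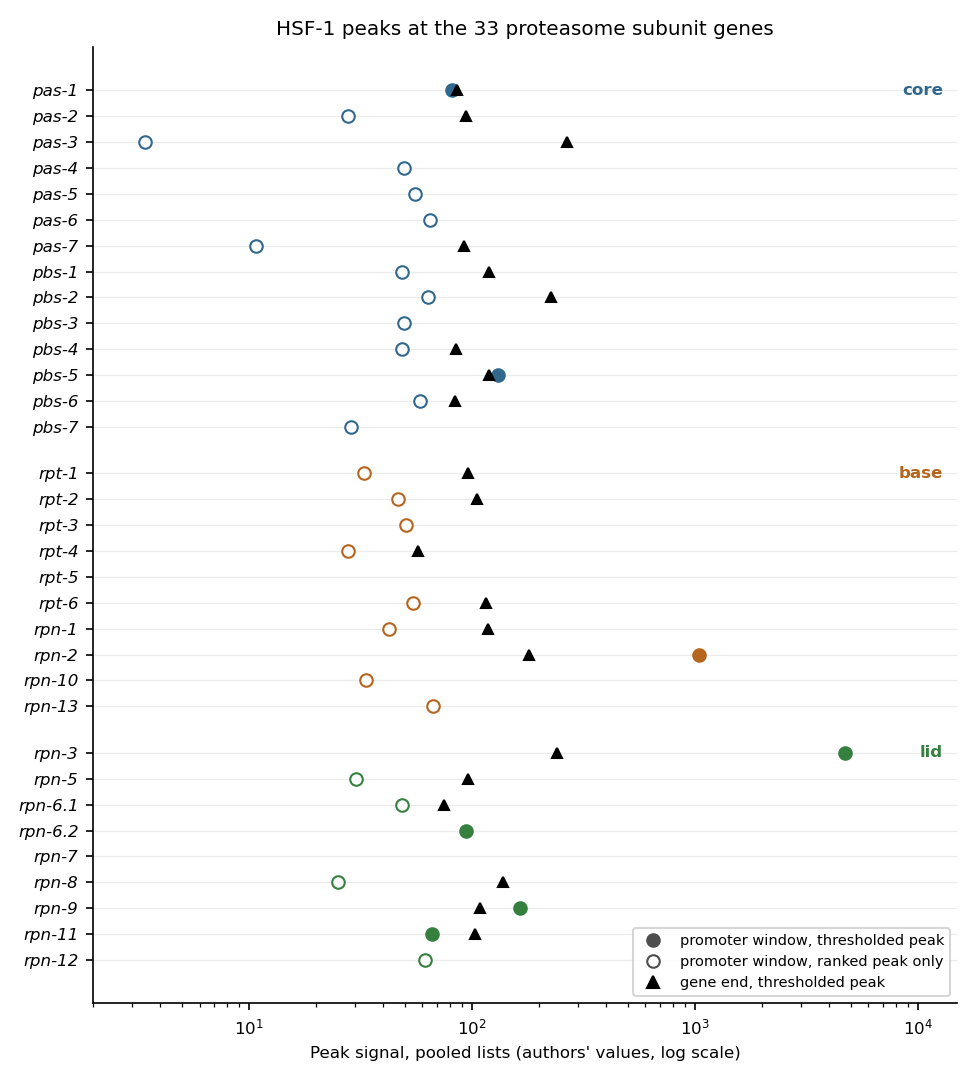
Strongest pooled peak of each of the 33 members (rows, grouped as core, base and lid) on a log scale of the authors' signal. Filled circles are thresholded peaks in the promoter window, open circles are ranked peaks only, and triangles are thresholded peaks at the gene end. The promoter peaks of rpn-3 (4697) and rpn-2 (1049) stand far to the right, while the triangles other than that of rpt-4 (57.5) lie between 75.1 and 266, and rpt-5 and rpn-7 have no promoter-window peak in the pooled ranked list.

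Of the lid genes, rpn-3, which encodes a scaffold subunit, had the strongest peak of any member, at 8446886 to 8447326 on chromosome III. Pooled, its signal was 4697, against 1992 for replicate 1 alone and 2720 for replicate 2 alone. It ranked 8 of 2935 pooled peaks, and 10 and 8 in the lists of the replicates. The summit was intergenic, 195 bp before the start of rpn-3 and 249 bp before that of hsp-110, a divergent gene for a large HSP70-related cochaperone. The element nearest to the summit was 18 bp from it and the other 140 bp from it, both as printed above. Since both starts share the peak, it cannot be assigned to rpn-3 alone. A second, weaker peak of the same window reached 77.4 pooled (replicates 43.6 and 49.7). It lay 874 bp before the start, in a coding exon of hsp-110, and had no element within 100 bp.

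The base gene rpn-2, which encodes one of the large scaffold subunits, had the second strongest peak, at 6198434 to 6198754 on chromosome III. The pooled signal was 1049 and those of replicates 1 and 2 were 454 and 636, and it ranked 49 of 2935. The summit lay 606 bp before the rpn-2 start and 164 bp before that of its divergent neighbour C23G10.7, and 14 bp from the nearer of the overlapping elements. The neighbour is thus closer to the summit than rpn-2 is, and when each summit was given to the nearest start only, rpn-2 was no longer bound. The conservative list held another peak 405 bp before the rpn-2 start, with a signal of 105.6 and no element. It was in both replicate lists, with 101.6 and 36.9, but its IDR in the pooled ranked list was 0.583 and it was not in the pooled list.

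None of the other promoter peaks of members exceeded a signal of 164.6. For rpn-9, a lid scaffold gene, the peak at 11239011 to 11239314 on chromosome II reached 164.6 pooled (replicates 71.7 and 87.3). Its summit was 244 bp before the rpn-9 start and 434 bp before that of the divergent gene T06D8.9. At pbs-5 (chromosome I, 14720286 to 14720589), the gene of the beta subunit with chymotrypsin-like activity, the signal was 131.3 pooled (replicates 55.4 and 69.4). That summit was 39 bp after the start, in a coding exon, and 81 bp from an element. In each replicate the 4 members kept the order rpn-3, rpn-2, rpn-9, pbs-5, and the summits of the replicates lay at most 19 bp from the pooled ones.

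The peak of rpn-6.2, the paralogue of rpn-6.1, lay at 9001585 to 9001888 on chromosome III. It had a pooled signal of 94.3 and was in an intron, 262 bp after the upstream start and 856 bp before an internal one, so it counts only through the internal start. It was in the list of replicate 2 (48.5), while replicate 1 had 44.0 with an IDR of 0.0312. Both peaks of pas-1, a gene of the alpha ring, were absent from both replicate lists. Its signals were 81.7 (chromosome V, 14423409 to 14423712) at 943 bp before the start, shared with rpoa-12, an RNA polymerase subunit gene whose start was 257 bp away, and 76.7 (14422365 to 14422668) at 101 bp after it, in an intron. The ranked lists of replicates 1 and 2 gave the upstream peak 38.8 and 41.3, and the intron peak 33.5 and 43.5. At rpn-11, which encodes the deubiquitinating enzyme of the lid, the pooled peak at 4044378 to 4044681 on chromosome II had a signal of 66.0 at 16 bp after a start, in an untranslated region. Replicate 2 had 58.3 there and replicate 1 only 12.5 with an IDR of 0.913, so this peak rests on replicate 2. Repeats were soft-masked over 52.7% of the sequence around the rpn-11 summit, and over 36.8% to 48.3% at rpn-2, rpn-3 and rpn-9. The part of masking in these signals was not tested.

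**Figure D2:**
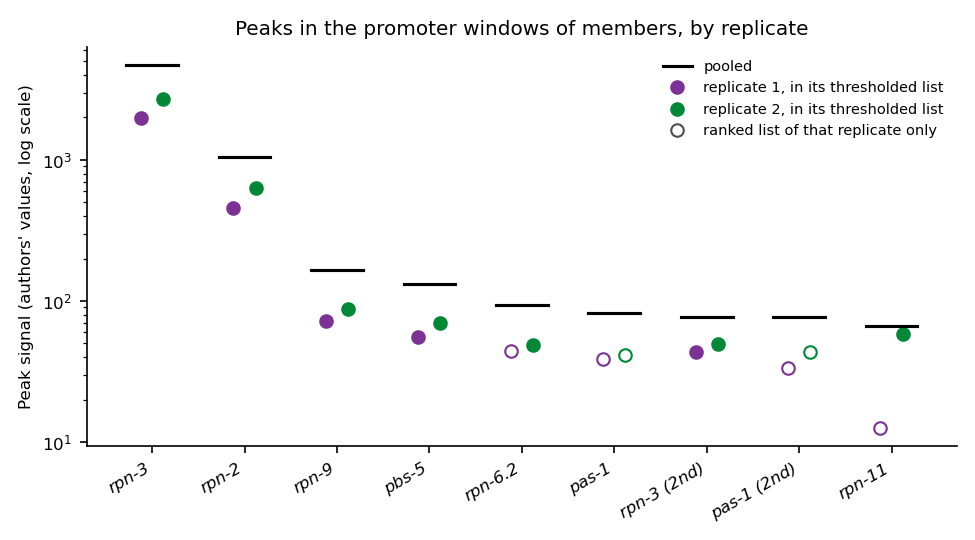
Signal (log scale) of the 9 pooled peaks in the promoter windows of the 7 bound members. Black lines are pooled values, and circles are the overlapping peaks of replicate 1 and replicate 2, filled where the peak is in the thresholded list of that replicate and open where it is only in the ranked list. Pooled values lie above both replicates at each peak, and the replicates differ most at rpn-11 (12.5 and 58.3).

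A few members lay at the border of the window. The summit of a peak upstream of pas-5, an alpha ring gene, was 982 bp before the start in replicate 1, with a signal of 25.9, and so inside. The pooled summit of the same peak was 1099 bp before the start, with 123.8, and so outside. For rpn-10, a ubiquitin receptor gene, a pooled summit of 76.9 lay 201 bp after the start. For rpn-7, a lid scaffold gene, a summit of 73.1 lay 209 bp after the start, in a coding exon, and had an element within 100 bp. With a wider window, 2000 bp before to 500 bp after the start, 13 of 33 members were bound, against 10.8% of all genes. With 500 bp before to 100 bp after it 4 members were, against 5.58%. Counts of bound members thus depend on the window.

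Heat shock elements were present in the promoter windows of 7 of 33 members (21.2%), against 9.21% of all genes. These were pas-1, pas-5, pbs-4, pbs-5, rpn-1, rpn-2 and rpn-3, so no ATPase gene and 1 of 9 lid genes had one. Of the 7, 4 were bound, against 14.6% of all genes with an element in the window. A pooled summit within 100 bp of the element was found at 3 of the 7 (rpn-3, rpn-2 and pbs-5), against 8.8% of such genes. Seen from the peaks, the strongest summit of 3 of 7 bound members had an element within 100 bp, against 9.57% of the 1338 pooled summits in promoter windows. The latter share counts every summit and not the strongest per gene. Among the 9 pooled summits of members, the second ones of pas-1 and rpn-3 had no element. The 4 bound members without an element at the strongest summit were pas-1, rpn-6.2, rpn-9 and rpn-11. The control pattern, with 3 bases between the triplets, was found at 2 of 33 members, against 5.96% of genes. When 1 mismatch was allowed, 24 of 33 members (72.7%) had an element, against 68.6% of genes.

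The elements of the other 4 members had no pooled summit within 100 bp. At pas-1 the element lay 130 bp before the start, in an untranslated region of rpoa-12, and 231 bp from the nearest pooled summit. The elements of pas-5 and pbs-4 lay 709 and 900 bp before the starts. The summit nearest to the pas-5 element, 390 bp away, was the thresholded pooled one of 123.8 just outside the window. At pbs-4 the nearest was a ranked summit 207 bp away, with a signal of 48.55 and an IDR of 0.239. The element of rpn-1, a scaffold gene of the base, was 957 bp before its start, in an intron of ribo-1. A ranked peak 81 bp from it had a signal of 37.2 and an IDR of 0.518. The letters of the pas-1 and rpn-1 elements, printed above, thus stood without a thresholded summit within 100 bp.

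**Figure D3:**
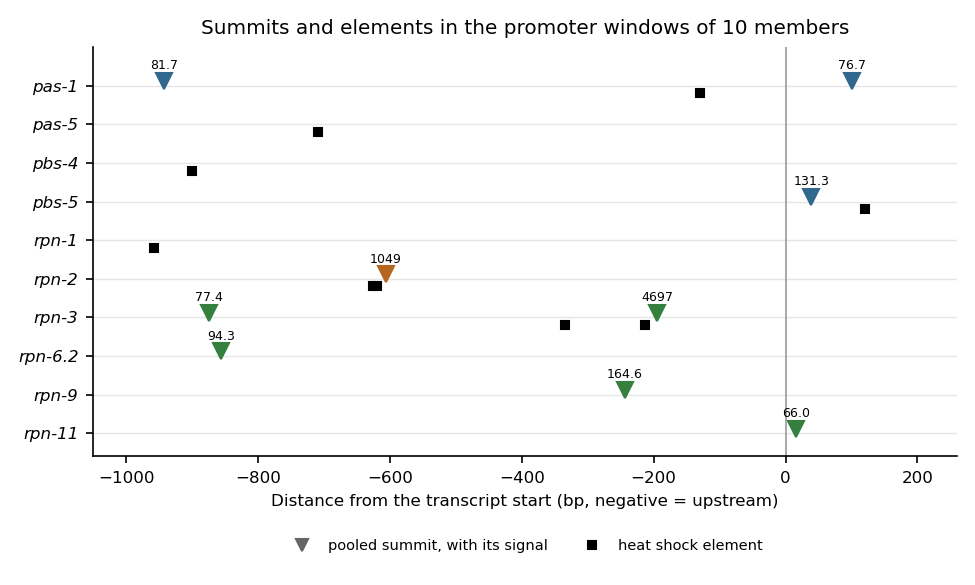
Pooled summits (triangles, labelled with their signal) and heat shock elements (squares) relative to the transcript start, in bp, for the 10 members that have either in the promoter window; for rpn-6.2 the internal start is used. At rpn-3 and rpn-2 squares sit next to the summits, whereas the squares of pas-1, pas-5, pbs-4 and rpn-1 have no triangle beside them.

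The other 26 members had no thresholded summit in the window, and their best peak in the pooled ranked list, which is not cut at a low IDR, was taken. Counting all members, 31 of 33 had at least 1 ranked peak in the window, against 71.2% of genes, and for 15 of 33 the IDR was 0.05 or less, against 12.2%. Among the 24 unbound members with a ranked peak, the median signal was 48.4 (quartiles 29.9 and 54.7), and among the 12702 unbound genes with one it was 32.4. An IDR of 0.05 or less was reached by 8 of 26 unbound members (30.8%), and by 4.95% of unbound genes. At the best peak, 12 of 24 members (50%) had an overlapping peak in the ranked list of each replicate, as had 43.5% of the genes. The strongest of these were rpn-13, a ubiquitin receptor gene (67.1), pas-6 (65.1), pbs-2 (63.5), rpn-12 (61.5) and pbs-6 (58.5). By subcomplex the unbound medians were 49.0 in 12 core genes, 44.6 in 8 base genes and 39.4 in 4 lid genes, and the ranges overlapped. No peak of the pooled ranked list was found in the windows of rpt-5, an ATPase gene, and rpn-7.

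Many summits near members lay outside the promoter window, at the other end of the gene. This was seen in the data and the window for it was set afterwards, from 200 bp before to 500 bp after the annotated end of the gene. With it, 21 of 33 members (63.6%, 46.6% to 77.8%) had a pooled summit at the gene end, against 5.86% of all genes. The core had 9 of 14 (64.3%), the base 6 of 10 (60%) and the lid 6 of 9 (66.7%). The ATPase genes, none of which was bound at its promoter, had 4 of 6, at rpt-1, rpt-2, rpt-4 and rpt-6. Over all 21 members the strongest gene-end summits stood at a median of 143 bp past the end and at most 420 bp. At 20 of the 21 they lay past the end, and the exception was rpn-6.1, 11 bp before it. Between 100 and 200 bp past the end there was a summit at 11 of 33 members (33.3%), against 1.92% of genes. Between 100 and 200 bp before the end there was none, against 0.431%, a share at which 33 genes would seldom show any. The bins on either side, 0 to 100 and 200 to 300 bp before the end, each had 1 of 33 members (3.03%), against 0.466% and 0.431%.

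Gene-end peaks were found in each replicate taken alone. The list of replicate 1 had them at 13 of 33 members, against 2.26% of genes, and the list of replicate 2 at 18, against 3.89%. In the conservative list there were 19, against 5.33%. A pooled gene-end peak that overlapped both replicate lists was found at 10 members, against 1.84% of genes. Of the 7 members bound at the promoter, 6 also had a pooled gene-end summit, as had 24.5% of the 1524 bound genes. Taking promoter window and gene end together, 22 of 33 members had a pooled summit, against 11.6% of genes.

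**Figure D4:**
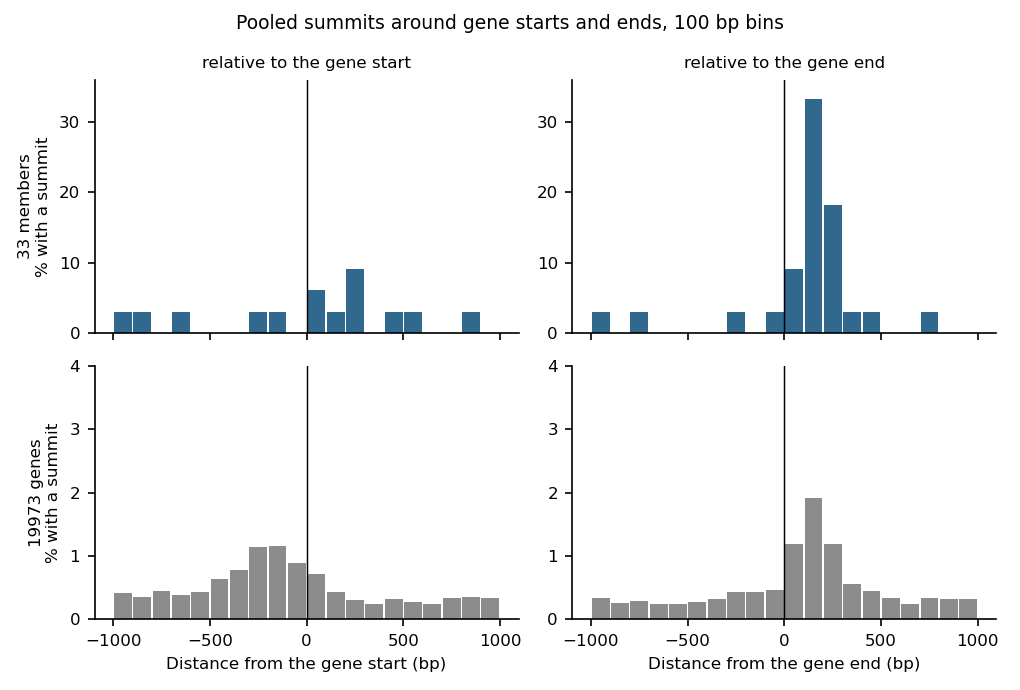
Share of genes with a pooled summit in each 100 bp bin around the gene start (left) and the gene end (right), for the 33 members (top, axis to 36%) and for all 19973 protein-coding genes (bottom, axis to 4%). Among members the highest bar lies 100 to 200 bp past the end (33.3%), where all genes also have their highest bar, at 1.92%.

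The gene-end signals were moderate. Over the 21 members the strongest gene-end signal ranged between 57.5 and 266, with a median of 105.6. The median over the 1036 gene-end summits of all genes was 90.7. That value counts every summit and not the strongest per gene, so the 2 medians are not like for like. The highest signal among members belonged to pas-3, an alpha ring gene whose promoter window held only a ranked peak of 3.41. It reached 266 pooled (87.7 and 179.7 in replicates 1 and 2) at 128 bp past the end (chromosome I, 5104907 to 5105053). Next came rpn-3 with 240.5 (113.5 and 146.7 in the replicates) at 11 bp past the end, and pbs-2, a beta ring gene, with 225.7 (104.4 and 122.2) at 270 bp past it. The gene end of rpn-2 had 179.7 (80.0 and 80.0), at 50 bp past it. That of rpn-8, which encodes the partner subunit of rpn-11 in the lid, had 137.5 (49.5 and 72.8) at 230 bp past it. In replicate 1 both rpn-3 and pbs-2 were above pas-3.

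Weaker gene-end peaks found in both replicate lists belonged to pbs-1 (119.1), rpn-1 (117.5), rpt-6 (115.3), rpn-9 (108.2) and pas-1 (86.1). For rpt-6, an ATPase gene, the replicates had 63.4 and 53.4, and for rpn-1 they had 59.7 and 67.9. Other gene ends rest on 1 replicate list or on the pooled data, such as that of pbs-5, with 119.8 pooled, 75.3 for replicate 2 and, with an IDR of 0.759, 42.3 for replicate 1. At 17 of the 21 members the gene-end signal was above the best ranked signal in the promoter window. In 15 of these 21 the order was largely set beforehand. They had a thresholded peak at the end and none in the promoter window. Of the 6 members with a thresholded peak at both places, pas-1 and rpn-11 had the stronger one at the end. The other 4, rpn-3, rpn-2, rpn-9 and pbs-5, had the opposite order, and their promoter peaks were in both replicate lists. The same count over all genes was not made.

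None of the 23 gene-end summits of members had an element within 100 bp, as against 4.92% of all gene-end summits with one. With 1 mismatch allowed, 3 of 23 had one, against 18.9%. Most of these peaks had the list's commonest width of 304 bp (18 of 21, and 80.6% of all pooled peaks).

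Worm genes lie close together, and the gene-end summits also lay near or in other genes. Of the 21 strongest summits, 11 were also in the promoter window of another gene and 10 were in none. Counting only summits in no other promoter window, 10 of 33 members had one, against 3.33% of genes. Among these were rpn-2, rpn-8, pbs-1, rpt-6 and rpt-2. Examples of shared summits were those of pbs-2 with tba-2, an alpha tubulin gene, of rpn-3 with the mitochondrial ribosomal protein gene mrpl-32, and of rpt-1 with snr-4, a spliceosomal Sm protein gene. By annotation 9 of the 23 summits were in coding exons (39.1%, against 26.1% of all gene-end summits), 7 in untranslated regions (30.4%, against 12.9%) and 7 were intergenic (30.4%, against 51.2%). The coding exons were all those of neighbouring genes, and so were the untranslated regions except at rpn-6.1.

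The gene downstream of a member was often close. Within 1000 bp, 16 of 33 members had a convergent neighbour (48.5%, against 33.8% of genes), 14 had one on the same strand (42.4%, against 29.9%) and 3 had neither. A gene-end summit was present at 12 of the 16 members with a convergent neighbour (75%, against 6.99% of such genes) and at 9 of the 14 with one on the same strand (64.3%, against 7.56%). The 3 members without either had none, against 3.43%. Which gene of a neighbouring pair a summit belongs to was not tested.

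As a measure of how far this extends to other abundant complexes, the same counts were made for the cytosolic ribosomal protein genes and the chaperonin genes, both chosen after the values of the proteasome genes were seen. At the gene end the share was 63.6% of proteasome members, 75.6% of 78 ribosomal protein genes and 37.5% of 8 chaperonin genes. At the promoter window it was 21.2% of proteasome members, 47.4% of ribosomal protein genes and 8 of 8 chaperonin genes. The gene-end intervals of proteasome and ribosomal protein genes overlap (46.6% to 77.8% and 65.1% to 83.8%), and no difference between these families was tested.

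**Figure D5:**
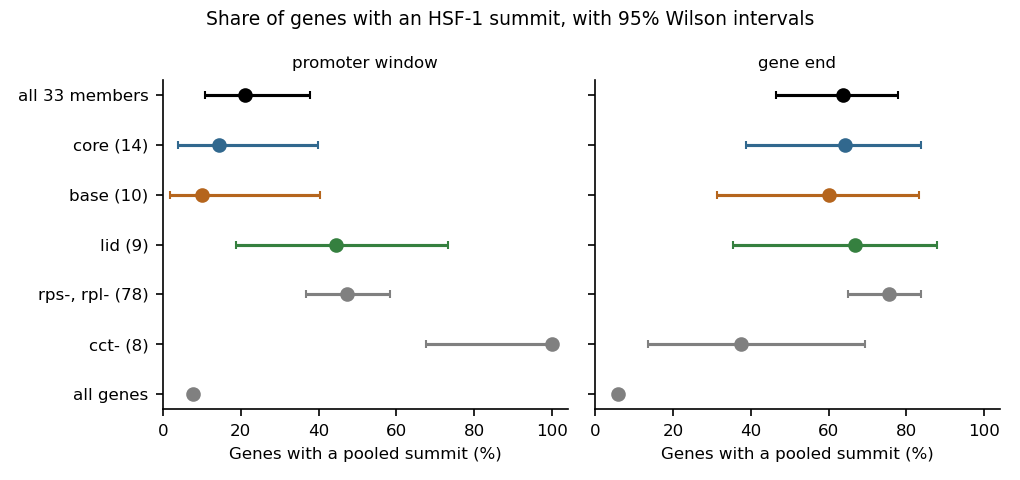
Share of genes with a pooled summit in the promoter window (left) and at the gene end (right), with 95% Wilson intervals, which cover the counting of genes only. Rows are all 33 members, the core, base and lid, then ribosomal protein genes, chaperonin genes and all 19973 protein-coding genes. Core, base and lid lie between 60% and 66.7% at the gene end, and between 10% and 44.4% at the promoter.

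Inside the gene, away from both windows, and apart from the borderline summits above and weak ones at rpn-6.1 (17.4) and rpn-7 (9.82, in a coding exon 409 bp after the start), pooled summits were found at rpn-8 (91.2 and 72.2, in coding exons 530 and 1241 bp after the start) and at rpn-2 (85.5, in an intron 838 bp after it). Those peaks of rpn-8 and rpn-2 were in neither replicate list. Promoter window and gene end together gave 22 of 33 members, against 11.6% of all genes. Altogether 24 of 33 members had a pooled summit at the promoter, the end or inside, a count that was not made over all genes. It exceeds the 22 only through rpn-10 and rpn-7, whose borderline summits lay 201 and 209 bp after the start, just past the promoter window. The 9 members with none were pas-4, pas-5, pas-6, pbs-3 and pbs-7 of the core, rpt-3, rpt-5 and rpn-13 of the base and rpn-12 of the lid. Of the 26 unbound members, 16 had a pooled summit within 2000 bp of a start (61.5%), as had 6.93% of the 18449 unbound genes. Member genes had a median length of 1490 bp against 2027 bp for all genes, and where genes are short, starts and ends lie closer together. The core genes were the short ones (median 1018.5 bp), while base (1840 bp) and lid genes (1994 bp) were closer to all genes. The part of gene length in these distances was not tested.

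Promoter architecture was described because 4 of the 7 bound members share a summit with another gene. A divergent start within 1000 bp was present at 21 of 33 members (63.6%), against 18.3% of genes. It was present at 4 of the 7 bound members (57.1%), against 33.7% of bound genes. A gene on the same strand ended within 500 bp before the start at 8 of 33 members (24.2%, against 18.1% of genes), and at 4 of the 7 bound members (57.1%, against 27.4% of bound genes). Of the 9 pooled summits in members' windows, 4 lay in windows of more than 1 gene, as did 26.9% of all 1338 promoter summits.

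The pathway around the proteasome was read from a list of 19 genes, of which 18 matched the annotation, and 3 of the 18 were bound, against the 7.63% of all genes. All 3 were among the 13 accessory and assembly factors. The gene cdc-48.1, for the AAA ATPase that extracts ubiquitinated proteins, reached 464 pooled (replicates 221 and 238) at 179 bp before the start. The ubiquilin gene ubql-1, for a shuttle factor, had 200.1 (77.5 and 112) at 92 bp before the start, with 1 element within 100 bp. The gene aip-1, for an arsenite-inducible AN1 zinc finger protein, had 181.8 (90.2 and 87.2) at 8 bp before it. None of the 5 genes of the SKN-1A pathway (skn-1, ddi-1, png-1, sel-1 and sel-11) was bound. Their ranked signals were at most 61.3, at sel-11, with an IDR of 0.0429, and 57.7 at skn-1 with 0.0305.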

How the data were processed

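Per the labels, chromatin of whole worms of 1 strain was immunoprecipitated in 2 biological replicates. Peak lists on ce11, some cut at a threshold and some ranked without one, were deposited by the authors for each replicate and for both together (pooled, and a smaller conservative list). The labels name no aligner or peak caller (not given in the sources used here). They list a possible control, which was not analysed here. Depth is unknown. Peak signal, a column the authors deposited, is the caller's value. The −log10 of the IDR was also deposited by the authors, in the ranked lists, and was converted to the IDR, which reaches no lower than 1e-05. The conservative ranked list was not used, nor were 16 columns of the pooled and conservative ranked tables that hold values of single peak sets without naming them.

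The computations used Python 3.11.15 with numpy 2.4.6, scipy 1.17.1 and matplotlib 3.10.9. Genes came from Ensembl release 115 and bases from the RefSeq sequence of the same assembly. Replicate values at a pooled peak are those of the overlapping peak (at least 1 bp) in the replicate's own list. Elements were searched in the promoter window and within 100 bp of summits. Assignment of summits and elements was tested on simulated data. Members and lists were chosen with earlier results of these data known, and gene-end windows and the ribosomal and chaperonin families after the values were seen. The genes named are the bound members with all their summits, members in any replicate or conservative list, the 5 strongest unbound members, members with an element, genes that share a summit, and, outside that rule, members with gene-end, gene-body or borderline summits. Of the pathway genes, adrm-1 had no match. There is 1 group, so no test between groups was possible, and counts stand beside the share over all genes. Alternatives were other lists, thresholds, windows, starts, assignments and motif settings, and leaving out each replicate.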

Additional observations from a re-analysis of the deposited data

How the results depend on the processing

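Counts of members bound at the promoter moved with list and window. An IDR of 0.05 or less gave 15 members (core 6, base 3) and 12.2% of all genes, and the window from 2000 bp before to 500 bp after the start gave 13 (core 4, base 3) and 10.8%. The window from 500 bp before to 100 bp after it gave 4 (core 1, base 0) and 5.58%, with 2 members holding an element. Pooled peaks in both replicate lists, an alternative chosen after seeing the data, gave 4 (core 1, lid 2) and 3.32%. The core count was 1 in the stronger part of the list, split at its median signal (4.75% of all genes), and with the upstream window only (6.8%). The base count was 0 by nearest gene (5.92%) and 2 when any base of a peak counted (8.3%). Without replicate 1 there were 6 members (core 1, base 1, lid 4), and without replicate 2 there were 5 (core 2, base 1, lid 2). Allowing 1 mismatch raised members with an element to 24. The median ranked signal of unbound members was 24.6 to 27.6 in single replicates, whose lists are not scaled to the pooled one. At the gene end, where the alternatives were also chosen after seeing the data, there were 18 members without replicate 1 and 13 without replicate 2. Summits in both replicate lists gave 10, and those in no other promoter window 10. The counts of bound members with an element stayed between 2 and 3. No paired analysis was possible because there was 1 group. With unknown depth, a missing peak does not show missing binding.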
